A study of Mus musculus with 36 samples.

Results

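The mouse Hsd3b genes encode the 3beta-hydroxysteroid dehydrogenases, and all 7 members were selected by symbol (Hsd3b1 to Hsd3b7) among the 53379 genes of the count tables. The family came to notice because Hsd3b6 had differed widely between kidney tumors and other tissues of these mice. The member values in every comparison that holds the kidney tumors are therefore a description, with folds and errors but no printed p-values. Members called there stand beside the share of all genes called. Nothing is read from these calls, nor from their gain or loss in other fits. RNA was sequenced from 36 libraries of formalin-fixed, paraffin-embedded mouse tissue. The mice were bred around the allele ASPSCR1-TFE3 LSL/+, whose stop cassette is removed by Cre so that the ASPSCR1-TFE3 fusion is made, as in some translocation renal cell carcinomas.

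The Sglt2-Cre; ASPSCR1-TFE3 LSL/+ mice, numbered 1 to 6, gave 11 kidney tumor libraries from 6 mice. They also gave 4 retro-orbital tumors (mice 2, 3, 5 and 6), 3 brain tumors (mice 1, 2 and 4) and 4 kidney samples called non-transformed (mice 1, 3, 4 and 5). Control kidneys were 6 libraries from 3 Sglt2-Cre mice without the fusion allele. A second model gave 5 dysmorphic kidneys of Pax8-Cre; ASPSCR1-TFE3 LSL/+ fetuses and 3 control fetal kidneys. The sample labels give Pax8-Cre for all 3 controls, whereas the design text allows Pax8-Cre or the fusion allele alone. The labels list no treatment beyond the crosses, and no ages. By the labels all 7 groups carry a Cre transgene, driven by the promoter of Sglt2, a gene of the proximal tubule, or of Pax8, a gene of the kidney lineage. Which libraries share a mouse was read from the shared start of their titles. Libraries of the same mouse and group were summed, so n counts mice or fetuses.

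The family oxidises 3beta-hydroxy-5-ene steroids to 3-keto-4-ene steroids, the step that turns pregnenolone into progesterone and that all steroid hormones of the adrenal and gonads pass through. In mice Hsd3b1 is the form of adrenal gland and gonads, and Hsd3b6 is known from adrenal cortex, Leydig cells and skin. Hsd3b2 and Hsd3b3 are forms of kidney and liver. Hsd3b4 and Hsd3b5 act mainly as reductases, Hsd3b5 being a gene of the male liver. Hsd3b7 acts on hydroxylated sterols in bile acid synthesis.

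Hsd3b1 to Hsd3b6 lie together on the minus strand of chromosome 3 (GRCm38, GENCODE M21), between 98499071 and 98859794, and Hsd3b7 stands alone on the plus strand of chromosome 7, from 127800604 to 127803802. From low to high coordinates the cluster runs Hsd3b4 (98499071 to 98510514), Hsd3b5 (98618634 to 98630252), Hsd3b2 (98709255 to 98724543), Hsd3b3 (98741523 to 98763127), Hsd3b6 (98805504 to 98814443) and Hsd3b1 (98852194 to 98859794). A further 12 annotated genes overlap the interval, 10 of them pseudogenes. The closest copies outside the family symbols are Gm10681, inside the cluster, and Gm4450, next to it.

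The members are so alike that reads can match more than 1 of them, which bears on every value given here. The coding sequence of each cluster member has 1119 bases. Hsd3b6 is 94.5% identical to Hsd3b3 and 94.4% identical to Hsd3b2, and 90% identical to Hsd3b1. Hsd3b2 and Hsd3b3 share 95.1% with each other. Hsd3b4 shares 95.2% with Hsd3b5 and all of its bases with Gm10681, but 82.3% with Hsd3b6. Hsd3b7 reaches 60.4% to 64.6% with the cluster members.

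**Figure D1:**
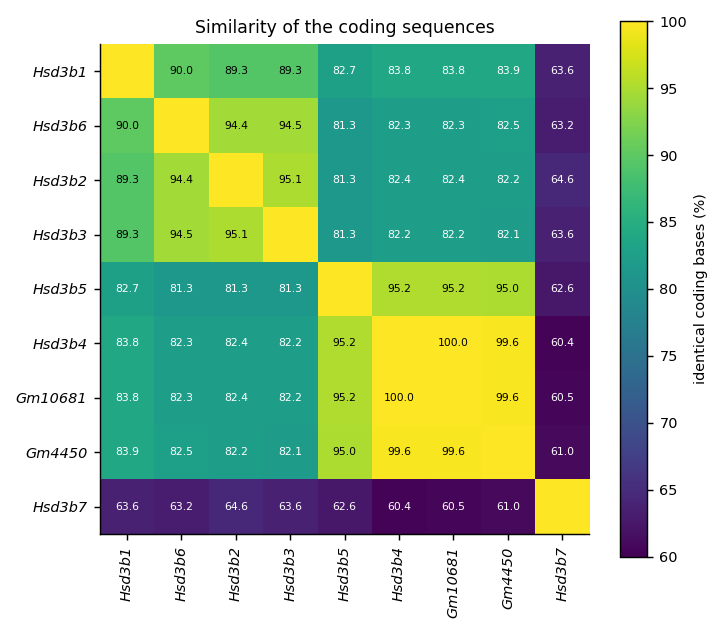
Heat map of the percent identity of aligned coding sequences for every pair of the 7 members, Gm10681 and Gm4450; colour runs from 60% to 100% and each cell prints its value. One block holds Hsd3b1, Hsd3b6, Hsd3b2 and Hsd3b3, with 89.3% to 95.1% identity, a second holds Hsd3b4, Hsd3b5 and both Gm genes, and Hsd3b7 stands apart at 60.4% to 64.6%.

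The first 90 coding bases show how little separates the 6 cluster members at the start of the protein. They are printed 5′ to 3′ on the coding strand, from GRCm38, with capitals at the bases that differ from Hsd3b6. The Hsd3b6 stretch lies at chr3:98810957-98811046. Hsd3b3 differs from it at 5 of 90 bases, Hsd3b2 at 7, Hsd3b4 at 11, Hsd3b1 at 12 and Hsd3b5 at 13.
Hsd3b6: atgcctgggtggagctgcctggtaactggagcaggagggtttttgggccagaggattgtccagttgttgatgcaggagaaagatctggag
Hsd3b3: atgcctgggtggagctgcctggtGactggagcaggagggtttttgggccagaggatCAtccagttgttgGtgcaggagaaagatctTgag
Hsd3b2: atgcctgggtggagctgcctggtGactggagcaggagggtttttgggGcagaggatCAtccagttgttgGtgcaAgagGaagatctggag
Hsd3b1: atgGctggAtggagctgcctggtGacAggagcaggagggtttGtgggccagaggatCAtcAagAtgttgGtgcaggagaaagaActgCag
Hsd3b4: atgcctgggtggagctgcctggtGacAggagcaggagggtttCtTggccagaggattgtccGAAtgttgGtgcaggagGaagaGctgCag
Hsd3b5: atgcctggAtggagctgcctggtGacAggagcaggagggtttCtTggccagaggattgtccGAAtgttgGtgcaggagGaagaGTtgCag

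Over whole transcripts, sequence private to a member differed widely between members. Among all 50-base windows of Hsd3b6 transcripts, 15.71% were found in another gene's transcripts, most often in those of Hsd3b2 (13.16%). Of 100-base windows, 3.11% were shared. For Hsd3b2, 26.93% of 50-base windows were shared with any gene, for Hsd3b3 8.73%, for Hsd3b5 21.2% and for Hsd3b1 4.86%. Every 50-base window of Hsd3b4 was also in Gm10681, so a fragment of Hsd3b4 of that length cannot be told from one of Gm10681. Only 23 of the 2769 exon bases of Hsd3b7 lie outside other annotated genes. It shares 1717 of them with the read-through gene Gm49388 on its own strand and 1729 with 9430064I24Rik on the other strand. How the authors counted reads that match several genes, and whether strand was used, is not given in the sources used here.

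Across the family, the kidney form with most RNA in control kidneys was Hsd3b3, followed closely by Hsd3b2. Levels are CPM, counts scaled to a common library size with TMM factors within each model's table. Divided by exon length, Hsd3b3 averaged 24.0 ± 2.18 CPM per kb and Hsd3b2 22.1 ± 5.06 (SD, n = 3), which differ by less than their spread. Hsd3b4 followed with 1.999 ± 1.23 CPM per kb. Hsd3b5 (0.380 ± 0.174) and Hsd3b6 (0.368 ± 0.0872) did not differ beyond their spread either, and Hsd3b1 (0.103 ± 0.00873) and Hsd3b7 (0.0141 ± 0.00930) came last. With the longest transcript as length, Hsd3b3 rose to 32.2 CPM per kb. The relative Gm4450 held 38.6% to 54.9% of the summed CPM per kb of the cluster members, Gm4450 and Gm10681 in control kidneys, more than any member.

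**Figure D2:**
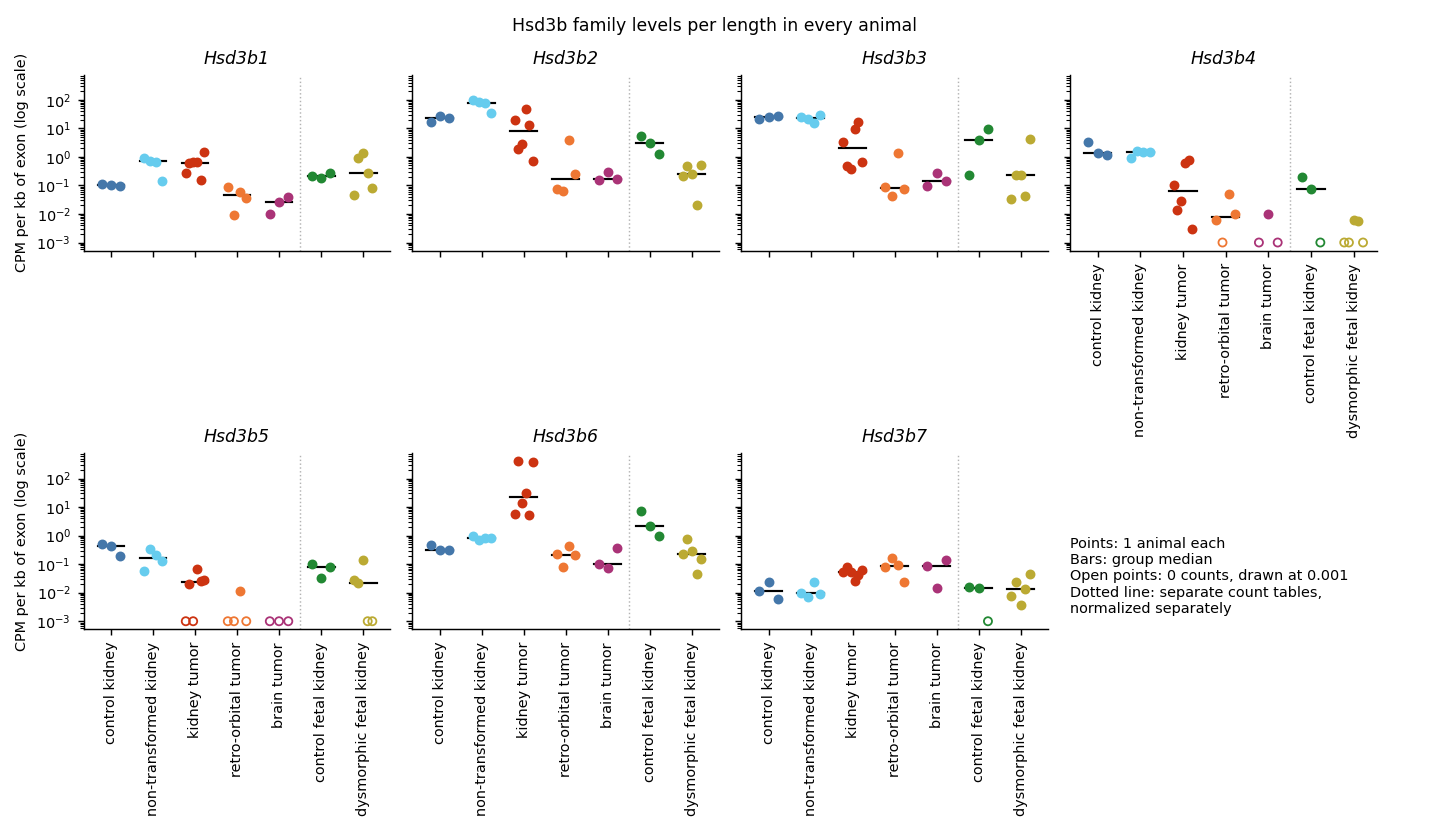
Level of each member in every animal, in CPM per kb of exon on a log axis, with 1 point per animal, a bar at the group median and open points for 0 counts; the fetal groups right of the dotted line come from a separately normalized table. Hsd3b6 is the member whose kidney tumors lie above all other groups of the Sglt2-Cre model, from 5.37 to 402 CPM per kb, while Hsd3b3 lies at 0.382 to 16.8 there and at 21.7 to 26.1 in control kidneys.

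Whole-series facts that touch these values are few. Libraries held 80205573 to 121415057 counts. Markers of the proximal tubule, 10 genes, summed to 13700 to 14170 CPM in control kidneys and 12720 to 15670 in non-transformed kidneys. Kidney tumors had a sum of 641 to 9556, the retro-orbital ones of 94.0 to 1185 and those of the brain of 280 to 737. In the separately normalized fetal table it was 1224 to 1483 in controls and 25.7 to 856 in dysmorphic kidneys. Markers of brain, 6 genes, summed to 38.6 to 1516 CPM in brain tumors and 21.8 to 53.1 in retro-orbital tumors. Gpnmb, a gene turned on by TFE3, was higher in kidney tumors than in control kidneys, with an adjusted p of 8.5e-05 in edgeR and a log2 fold change of 11.21 (SE 0.55). By Y-linked transcripts, mice 1 and 5 were male and the other fusion mice and all 3 controls female. Control fetus 1 and dysmorphic fetuses 1 to 3 were male. In bulk RNA, fewer cells of a type and less RNA per cell cannot be told apart.

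Hsd3b6 was a minor gene in control kidneys and the largest member in several kidney tumors. Control kidneys held 0.844, 0.568 and 0.576 CPM, a mean of 0.662 ± 0.157 (SD, n = 3). Kidney tumors held 10.1 CPM in mouse 1, 724 in mouse 2, 24.2 in mouse 3, 56.9 in mouse 4, 9.67 in mouse 5 and 662 in mouse 6. Every tumor mouse was thus above every control, and the tumor mice differed among themselves by far more than the controls did. The median of the 6 mice was 40.5 CPM, well under their mean of 247.8 ± 346. The 2 male mice, 1 and 5, had the lowest tumor levels.

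The other sites of the same mice did not share the high level. Retro-orbital tumors held 0.411, 0.144, 0.807 and 0.374 CPM in mice 2, 3, 5 and 6, and brain tumors 0.185, 0.127 and 0.661 in mice 1, 2 and 4. In mouse 2, which had all 3 tumor sites, Hsd3b6 stood at 724 CPM in the kidney, 0.411 behind the eye and 0.127 in the brain. Non-transformed kidneys held 1.76, 1.25, 1.47 and 1.496 CPM in mice 1, 3, 4 and 5, between the control kidneys and the kidney tumors and overlapping neither. Ordered by their mean, the groups of the Sglt2-Cre model began with kidney tumors (247.8), followed by non-transformed kidneys (1.496 ± 0.209), control kidneys (0.662), retro-orbital tumors (0.434 ± 0.275) and brain tumors (0.324 ± 0.293). The last 3 in that order overlapped and did not differ beyond their spread.

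Libraries from the same mouse showed that Hsd3b6 varied between kidney tumor libraries of 1 mouse as well as between mice. Levels of single libraries were scaled on their own, so they differ slightly from those of summed mice. The libraries of mouse 2 held 1550 and 6.90 CPM, those of mouse 4 held 2.84 and 113, and those of mouse 6 held 165 and 1106. Mouse 1 had 1.78 and 17.8 CPM, mouse 3 had 38.02 and 9.92, and mouse 5 had a single library with 9.26. The higher library exceeded the lower by 3.83 to 225 times in the 5 mice with a pair, with a median of 9.97. In the paired libraries of the 3 control mice that ratio was 1.13 to 1.25. Compared were the 15500 genes with a mean of at least 1 CPM over the Sglt2-Cre libraries. Between the libraries of mouse 2, 8 of them differed more than Hsd3b6, and in mouse 4 47 did. The same count was 225 in mouse 1, 517 in mouse 3 and 79 in mouse 6. Hsd3b6 came to notice by its kidney tumor levels and passed that filter mainly through them, so these ranks are a description.

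**Figure D3:**
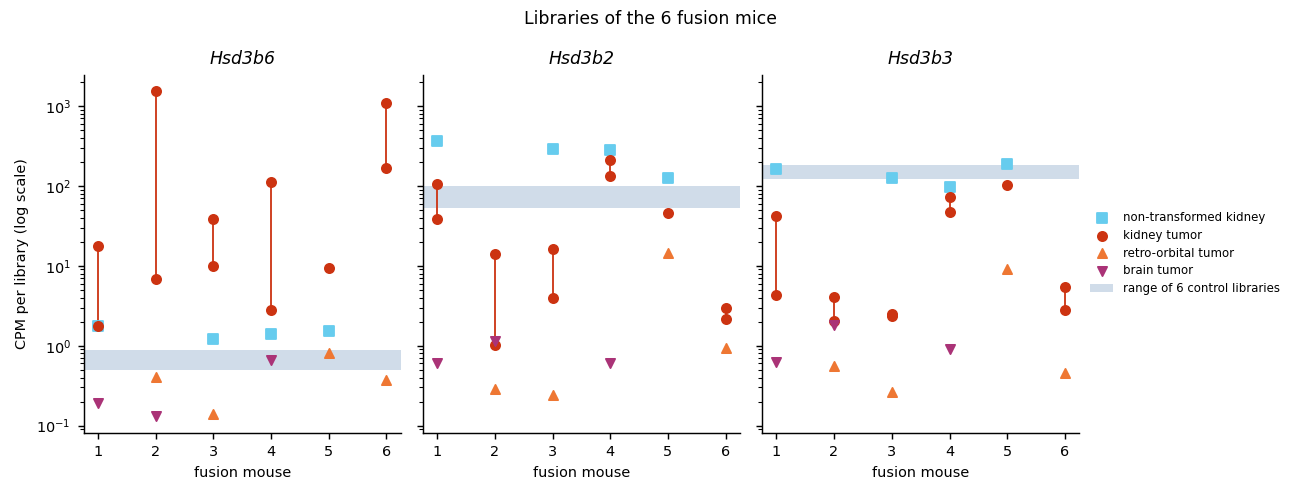
CPM of Hsd3b6, Hsd3b2 and Hsd3b3 in each library of the 6 fusion mice, on a log axis, with lines joining the kidney tumor libraries of a mouse and a band for the range of the 6 control libraries. Kidney tumor libraries of Hsd3b6 run from 1.78 to 1550 CPM, all above the control band of 0.490 to 0.885, while all kidney, retro-orbital and brain tumor libraries lie under the Hsd3b3 control band of 122 to 181.

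Hsd3b2 and Hsd3b3, the abundant kidney forms, were lower in most kidney tumors than in control kidneys. Hsd3b3 held 139, 154 and 167 CPM in the control kidneys. In the kidney tumors its lowest level was 2.44 (mouse 3), its median 13.1 and its highest 107 (mouse 5), so that all 6 tumor mice were under all controls. Hsd3b2 held 60.6, 96.7 and 87.3 CPM in controls and from 2.59 (mouse 6) to 173 (mouse 4) in kidney tumors, with a median of 28.9, and these groups overlapped. In retro-orbital tumors Hsd3b2 stood at 0.288, 0.245, 14.1 and 0.942 CPM in mice 2, 3, 5 and 6, mouse 5 being far above the others. Brain tumors held 0.583, 1.11 and 0.605 CPM of Hsd3b2 and 0.601, 1.78 and 0.907 of Hsd3b3 in mice 1, 2 and 4.

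Hsd3b3 moved with the proximal tubule markers, and Hsd3b2 did so less closely. The 4 tumor libraries with the highest marker sums, 4775 CPM in the first of mouse 1, 10780 and 6953 in mouse 4 and 9145 in mouse 5, held 41.7, 72.9, 46.8 and 103 CPM of Hsd3b3. The other 7 libraries, with sums of 385 to 1060 CPM, held 2.03 to 5.41. For Hsd3b2 the 4 libraries held 107, 213, 134 and 45.4 CPM and the other 7 held 1.03 to 38.9, the highest being the second library of mouse 1. Hsd3b6 did not follow this order, since the same 4 libraries held 1.78, 2.84, 113 and 9.26 CPM of it and the other 7 held 6.90 to 1550. The retro-orbital tumor of mouse 5 also had the highest marker sum of its group, 1199 CPM against 93.3 to 165 in the other 3 when libraries were scaled singly. The part of retained tubule in these levels was not tested.

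The remaining members were low everywhere. Hsd3b1, the adrenal and gonadal form, held 0.191 ± 0.0162 CPM in control kidneys (n = 3), 1.12 ± 0.603 in non-transformed kidneys (n = 4) and 1.199 ± 0.879 in kidney tumors (n = 6), then 0.0881 ± 0.0626 in retro-orbital (n = 4) and 0.0472 ± 0.0285 in brain tumors (n = 3). Hsd3b4 held 3.27 ± 2.01 CPM in control kidneys and 0.426 ± 0.576 in kidney tumors, and was at 0 counts in 1 retro-orbital and 2 brain tumors. Hsd3b5 held 0.589 ± 0.269 CPM in controls and 0.0359 ± 0.0370 in kidney tumors. It had 0 counts in all 3 brain tumors, which allows up to 0.00928 CPM by a floor of 3 counts over the group, a limit for counting error only. Of the counts from 1 to 20 in a library, 79.04% to 84.33% were even, and if fragments were counted at both ends that limit would be higher. Hsd3b7 ranged from 2 to 56 counts per mouse across the Sglt2-Cre model.

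As a share of the cluster, Hsd3b6 was low in control and non-transformed kidneys and varied widely between kidney tumors. The share was taken of the summed CPM per kb of the 6 cluster members with Gm4450 and Gm10681. Hsd3b6 made up 0.35% to 0.44% of that sum in control kidneys and 0.41% to 0.96% in non-transformed kidneys. In kidney tumors it made up 17.4% in mouse 1, 99.1% in mouse 2, 73.1% in mouse 3, 26.5% in mouse 4, 8.95% in mouse 5 and 99.2% in mouse 6. Mice 2 and 6 gave no non-transformed kidney. Hsd3b2 made up 38.5% to 64.4% in non-transformed kidneys, against 15.3% to 29.1% in control kidneys. The cluster's summed CPM was 321 to 323 in the 3 control mice and 40.1 to 736 in the kidney tumors.

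**Figure D4:**
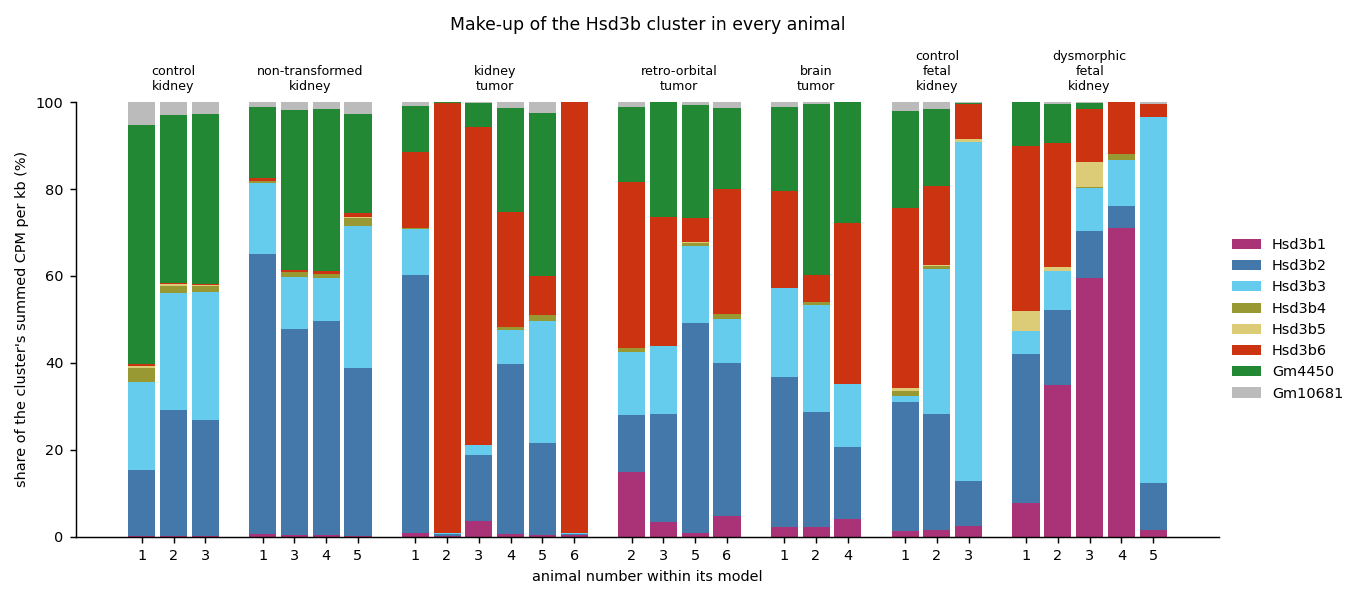
Stacked bars of the share of the cluster's summed CPM per kb held by each of 6 members, Gm4450 and Gm10681, with 1 bar per animal. Hsd3b6 fills 99.09% and 99.17% of the bars of kidney tumor mice 2 and 6 and under 1% of every control and non-transformed kidney.

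The ratio of Hsd3b6 to Hsd3b2, the member with which it shares the most 50-base windows, was also taken. Counts of Hsd3b6 equalled 0.587% to 1.39% of those of Hsd3b2, in CPM, in control kidneys and 0.419% to 1.22% in non-transformed kidneys. In kidney tumors the range was 14.3% to 25600%. In mice 2 and 6, with the most Hsd3b6, Hsd3b2 stood at 0.977% and 0.391% of the Hsd3b6 level. Low values of a member beside an abundant relative, such as Hsd3b6 in control and non-transformed kidneys, cannot be told apart from misassigned reads of that relative by these counts.

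Against control kidneys, 4 of the 7 members were called in kidney tumors at an adjusted p under 0.05 in edgeR's quasi-likelihood test, where 19.0% of all 23578 genes tested were called. Hsd3b6 had a log2 fold change of 8.57 (SE 2.14), a 379-fold difference of the fitted means. Hsd3b1 (2.68, SE 0.70) and Hsd3b7 (1.89, SE 0.56) were also called higher. Hsd3b5 was called lower, at -4.01 (SE 0.99). Hsd3b2 (-0.64, SE 1.05), Hsd3b3 (-2.22, SE 1.08) and Hsd3b4 (-2.96, SE 1.29) were not called. The median over the 7 members was -0.64, against 0.05 over all genes tested. The call of Hsd3b6, like those of the other members, was lost without control mouse 1, 2 or 3, while the genes called overall fell from 4474 to 2084, 1163 and 1207. The Hsd3b6 log2 fold change stayed between 7.63 and 8.84 when any mouse, or either of the 2 libraries highest in Hsd3b6, was left out, and was 9.13 (SE 1.5) with sex as a covariate.

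**Figure D5:**
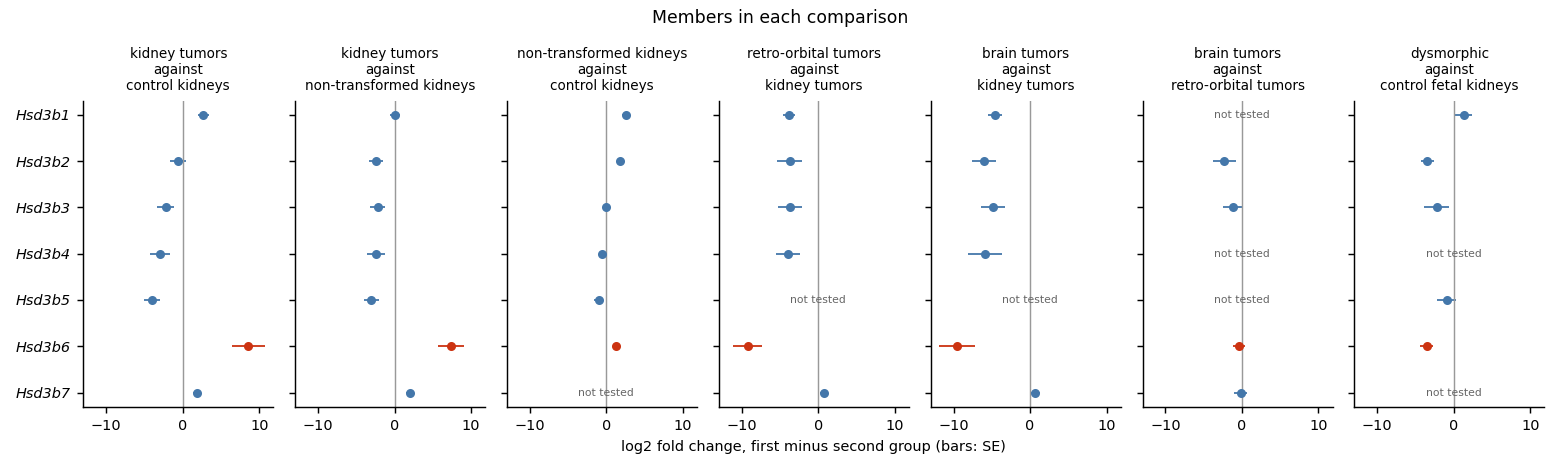
Log2 fold change of each member in each of the 7 comparisons, first minus second group, with bars for the SE and text where a member did not pass the filter on low counts. Hsd3b6, in red, lies at 8.57 and 7.34 in kidney tumors against control and non-transformed kidneys and at -9.18 and -9.51 in retro-orbital and brain tumors against kidney tumors; the members' values in those 4 comparisons are descriptions.

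Against the non-transformed kidneys, the same contrast within the fusion mice, 2 of 7 members were called, both higher in kidney tumors, beside 17.1% of 21930 genes. Hsd3b6 had a log2 fold change of 7.34 (SE 1.68) and Hsd3b7 of 1.99 (SE 0.48). Hsd3b1 was at 0.06 (SE 0.63), and the other members lay between -3.01 (Hsd3b5) and -2.16 (Hsd3b3). Within mice 1, 3, 4 and 5, which gave both tissues, the tumor level of Hsd3b6 was 5.73, 19.3, 38.7 and 6.46 times that of the non-transformed kidney, while Hsd3b2 was at 0.194, 0.0345, 0.597 and 0.386 times and Hsd3b3 at 0.137, 0.0185, 0.594 and 0.592 times. With the mouse as a block over those 4 mice the Hsd3b6 log2 fold change was 3.64 (SE 0.59), and 4.12% of genes were called. Hsd3b7 did not pass the filter in that fit. Mice 2 and 6, with the highest tumor levels, gave no non-transformed kidney and are not in that fit. With sex as a covariate the value was 5.48 (SE 1.79). The call of Hsd3b6 was lost in that fit and without mouse 1 or 3, where the genes called overall fell from 3755 to 1423 and 1252.

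Non-transformed kidneys against control kidneys does not hold the kidney tumors, so there the members can be tested. None of the 6 members that passed the filter was called by edgeR, beside 0.00952% of 21019 genes (2 genes). Hsd3b2 held 366, 299, 289 and 123 CPM in non-transformed kidneys of mice 1, 3, 4 and 5, all above the 3 controls, with a log2 fold change of 1.75 (SE 0.34, adjusted p = 0.173). Hsd3b1 held 1.65, 1.37, 1.198 and 0.256 CPM against 0.173 to 0.205 in controls, and its log2 fold change was 2.57 (SE 0.58, adjusted p = 0.196). Hsd3b6 differed by 1.21 (SE 0.29, adjusted p = 0.206). At 0.419% to 1.22% of the Hsd3b2 level in these kidneys, it cannot be told apart from misassigned reads of Hsd3b2. For these 3 members the groups did not overlap, their unadjusted p was under 0.05, and DESeq2 called all 3, beside 2.35% of genes. Fitting every library as its own sample, which counts the paired control libraries as independent, also called these 3, beside 1.09% of genes. Without the non-transformed kidney of mouse 5, Hsd3b1 (adjusted p = 0.0388) and Hsd3b2 (adjusted p = 0.0319) were called, beside 0.0462% of 21668 genes (10 genes). Mice 1 and 5 were male and all controls female. With sex as a covariate edgeR called no member, beside 0.0238% of 21019 genes (5 genes).

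The other kidney forms gave smaller differences in that comparison. Hsd3b3 held 161, 132, 100.2 and 182 CPM in the non-transformed kidneys, with a log2 fold change of -0.05 (SE 0.20, adjusted p = 0.941). Hsd3b4 (-0.53, SE 0.40, adjusted p = 0.622) and Hsd3b5 (-1.01, SE 0.59, adjusted p = 0.517) overlapped between the groups, and Hsd3b7 was too low to be tested. The median log2 fold change over the 6 tested members was 0.58, against 0.03 over all genes. Proximal tubule markers gave 0 of 10 calls here in either tool and 0 at an unadjusted p under 0.05, and their summed ranges overlapped. Gpnmb, the TFE3 target, was called higher in the non-transformed kidneys, at 6.97 (SE 0.67, adjusted p = 0.0483). Without control mouse 1, 2 or 3 edgeR called 0 genes in this comparison, Gpnmb included, with 3390, 1215 and 1365 genes at an unadjusted p under 0.05.

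Retro-orbital against kidney tumors and brain against kidney tumors share the kidney tumor libraries with the 2 kidney comparisons and with each other. The family came to notice through those libraries, so the members' calls on them, and how they change between fits, are a description. In retro-orbital tumors 2 of the 6 tested members were called lower, beside 17.7% of 22136 genes. Hsd3b6 had a log2 fold change of -9.18 (SE 1.89) and Hsd3b1 of -3.80 (SE 0.79). Hsd3b2 (-3.74, SE 1.59), Hsd3b3 (-3.69, SE 1.53) and Hsd3b4 (-3.95, SE 1.63) were not called, and Hsd3b7 was 0.75 (SE 0.50). In each of the 4 mice with both tumors Hsd3b6 was lower behind the eye, at 0.000564 to 0.0834 times the kidney level. Without mouse 5, the retro-orbital tumor with the most Hsd3b2, the log2 fold change of Hsd3b2 was -6.73. With the mouse as a block over the 4 mice with both tumors, edgeR called Hsd3b6 (-8.51, SE 1.80) and Hsd3b3 (-3.07, SE 0.24) and no longer Hsd3b1 (-3.80, SE 0.95), beside 13.1% of genes. The call of Hsd3b6 was lost without mouse 2 or 6. The genes called overall fell from 3919 to 1805, 1635 and 1775 without mouse 2, 3 or 6.

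In brain tumors 3 of 6 tested members were called lower, beside 8.74% of 23391 genes, and this too is a description. They were Hsd3b6 (-9.51, SE 2.34), Hsd3b2 (-5.99, SE 1.54) and Hsd3b1 (-4.56, SE 0.88). Hsd3b3 was at -4.82 (SE 1.54) and Hsd3b4 at -5.95 (SE 2.22). In mice 1, 2 and 4 the brain tumor held 0.0183, 0.000175 and 0.0116 times the Hsd3b6 level of the kidney tumor. With the mouse as a block over those 3 mice the Hsd3b6 log2 fold change was -7.62 (SE 1.85), and none of the 5 members tested was called by edgeR, with 3 at an unadjusted p under 0.05. The call of Hsd3b6 was also lost without mouse 1, 2, 3, 4 or 6 and without the mouse 2 library highest in Hsd3b6. The genes called overall fell as well, from 2044 to 0 with the block (2870 at an unadjusted p under 0.05) and to 553, 300, 941, 1528, 1258 and 1203 without mice 1 to 6 in turn.

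Brain against retro-orbital tumors, which leaves out the kidney tumors, gave no difference that passed the test for any of the 4 members tested, beside 1.73% of 21037 genes. No member had an unadjusted p under 0.05 in edgeR. DESeq2 called neither Hsd3b6 nor Hsd3b7, beside 14.7% of genes, and gave no adjusted p for Hsd3b2 and Hsd3b3. The edgeR share of 1.73% rests on single mice. With all mice edgeR called 364 genes, and without mouse 1 or 4 it called 1316 and 1052. It called 0 without mouse 2 (3141 at an unadjusted p under 0.05), and 11, 179 and 10 without mouse 3, 5 or 6. Hsd3b6 differed by -0.41 (SE 0.76, adjusted p = 0.806) and Hsd3b2 by -2.32 (SE 1.52, adjusted p = 0.436). Without mouse 5, whose retro-orbital tumor held most of the group's Hsd3b2 and Hsd3b3, the log2 fold changes of Hsd3b2, Hsd3b3 and Hsd3b6 were 0.69, 1.39 and 0.09, and 1 of the members tested was then at an unadjusted p under 0.05. With these errors a difference of several fold in either direction remains possible.

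In the fetal model, levels were normalized in their own table. Control fetal kidneys held 13.3, 3.79 and 1.73 CPM of Hsd3b6, and dysmorphic kidneys 0.415, 1.36, 0.505, 0.0845 and 0.267 CPM in fetuses 1 to 5. All dysmorphic kidneys were below all controls. Hsd3b2 showed the same order, with 19.5, 11.4 and 4.64 CPM in controls and 0.0751 to 1.96 in dysmorphic kidneys. None of the 5 tested members was called by edgeR, beside 2.67% of 22690 genes. The log2 fold change was -3.56 for Hsd3b6 (SE 0.90, adjusted p = 0.0769) and -3.44 for Hsd3b2 (SE 0.84, adjusted p = 0.0722), both at an unadjusted p under 0.05 and both called by DESeq2. DESeq2 called 12.0% of all genes. Without dysmorphic fetus 2 Hsd3b6 was called, at -4.29 (adjusted p = 0.0346), beside 5.58% of all genes in that fit. With the title prefix of the fetus as a covariate it was called too (-3.41, adjusted p = 0.0497), beside 1.80% of genes. Hsd3b6 was not called with sex as a covariate (-4.03, adjusted p = 0.056), beside 0.022% of genes. Without dysmorphic fetus 5 it was not called either (-3.39, adjusted p = 0.0876), beside 5.12% of genes. Over all genes, leaving out any 1 control fetus, or dysmorphic fetus 1, 3 or 4, left 0 genes called by edgeR, with 3209 to 4615 at an unadjusted p under 0.05, against 605 called with all 8 fetuses, while 1247 were called without dysmorphic fetus 2 and 1141 without fetus 5.

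Hsd3b3 was uneven within both fetal groups. It held 1.53, 24.6 and 59.5 CPM in the controls and 26.4 CPM in dysmorphic fetus 5, against 0.207 to 1.51 in the other 4. Its log2 fold change was -2.25 (SE 1.62, adjusted p = 0.484). Hsd3b1 was uneven in the dysmorphic kidneys too, with 0.396, 0.343 and 0.513 CPM in controls and 0.0873, 1.71, 2.56, 0.516 and 0.146 in dysmorphic kidneys, and was not called (1.27, SE 1.05, adjusted p = 0.546). Fetus 5 also had the highest proximal tubule marker sum of the dysmorphic kidneys, 856 CPM against 25.7 to 150.5. Skeletal muscle markers were called higher in dysmorphic kidneys for 5 of 5 genes, with sums of 2664 to 6052 CPM against 1160 to 1388. Hepatocyte markers summed to 12.1, 258, 254, 72.8 and 23.95 CPM in dysmorphic fetuses 1 to 5, with the higher sums in fetuses 2, 3 and 4 as for Hsd3b1, and to 8.44 to 42.9 in controls. Adrenal cortex markers summed to 18.69, 8.703, 9.975, 11.24 and 4.366 CPM in dysmorphic fetuses 1 to 5, highest in fetus 1, where Hsd3b1 was lowest. In controls that sum was 6.336 to 18.92. The part of tissue make-up in the member values was not tested.

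Other genes of the steroid pathway were read against the 19.0% of all genes called in kidney tumors against control kidneys. Of 12 genes of steroid synthesis, 7 passed the filter there and 1 was called, a share near that background. That was Tspo, the mitochondrial translocator protein of cholesterol import, which rose by 1.34 (SE 0.39, adjusted p = 0.0427), from 12.6 ± 0.834 CPM (n = 3) to 31.4 ± 14.2 (n = 6). Tspo was likewise higher than in non-transformed kidneys (1.24, SE 0.35, adjusted p = 0.0358) and was reduced in retro-orbital against kidney tumors (-1.31, SE 0.36, adjusted p = 0.0306), where Fdx1, the electron donor of mitochondrial steroid enzymes, was also lower (-0.94, SE 0.24, adjusted p = 0.0252). These were 1 of 7 genes tested against non-transformed kidneys, beside 17.1% of all genes, and 2 of 7 in retro-orbital tumors, beside 17.7%. Nr5a1, the master factor of steroid-making cells, and Cyp11b2, the aldosterone synthase, each had at most 3 counts summed over all 11 kidney tumor libraries. Cyp11a1, which makes pregnenolone, averaged 0.0214 CPM in control kidneys (14 counts in all) and 0.115 in kidney tumors (109 counts), and was not called (log2 difference 2.37, SE 0.92, edgeR adjusted p = 0.0969). Cyp11b1 had 0 counts in control kidneys and 47 in kidney tumors and did not pass the filter.

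Among 18 genes of steroid conversion, 4 of the 17 tested were called in kidney tumors against control kidneys, again near the 19.0% over all genes. Hsd17b1, which forms estradiol, rose by 1.85 (SE 0.56, adjusted p = 0.0481) and Srd5a3, a reductase of dolichol synthesis, by 0.68 (SE 0.18, adjusted p = 0.0294). Hsd17b7, of cholesterol synthesis, was lower (-0.71, SE 0.22, adjusted p = 0.0497), as was the mitochondrial Hsd17b10 (-0.52, SE 0.12, adjusted p = 0.0218). Hsd17b1 (1.56, SE 0.46, adjusted p = 0.0419) and Hsd17b7 (-0.91, SE 0.21, adjusted p = 0.0169) were the 2 of 16 called against non-transformed kidneys, beside 17.1% of all genes. In retro-orbital against kidney tumors 2 of 16 were called lower, beside 17.7%, and they were Hsd17b7 (-1.30, SE 0.27, adjusted p = 0.00982) and Hsd11b1, which regenerates active glucocorticoid (-3.71, SE 0.80, adjusted p = 0.012). In brain against kidney tumors Hsd11b1 was the 1 of 17 called (-3.65, SE 0.97, adjusted p = 0.0495), beside 8.74%. With the mouse as a block 0 of 21827 genes were called in brain against kidney tumors. Calls given here and below for that comparison come from the fit without the block. In brain against retro-orbital tumors the gene called was Hsd17b7, 1 of 14 (1.86, SE 0.34, adjusted p = 0.0497), beside 1.73%. Of 14 bile acid genes, the pathway of Hsd3b7, 1 of 13 tested was called, beside 19.0% of all genes, Hsd17b4 of peroxisomal oxidation at -0.49 (SE 0.11, adjusted p = 0.0192). Against non-transformed kidneys 2 of 13 were called, Hsd17b4 and the sterol carrier Scp2, both lower, beside 17.1%. Hsd17b4 and Scp2 were lower and Cyp46a1, a cholesterol hydroxylase of neurons, higher among 12 tested in retro-orbital against kidney tumors, beside 17.7%. Of 13 tested in brain against kidney tumors, Hsd17b4 was lower and Cyp46a1 higher, beside 8.74%.

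Receptors for the steroids were also measured. In kidney tumors against control kidneys, 2 of 6 were called, beside 19.0% of all genes, both lower: Nr3c1, the glucocorticoid receptor (-0.80, SE 0.15, adjusted p = 0.00912), and Nr3c2, the mineralocorticoid receptor (-0.97, SE 0.20, adjusted p = 0.0114). Nr3c1 was also lower than in non-transformed kidneys (-0.54, SE 0.14, adjusted p = 0.0304). The estrogen receptor Esr2 was higher in retro-orbital (2.64, SE 0.41, adjusted p = 0.00325) and brain tumors (3.10, SE 0.62, adjusted p = 0.0224) than in kidney tumors, where 17.7% and 8.74% of all genes were called. In non-transformed against control kidneys and in dysmorphic against control fetal kidneys, no gene of the 4 steroid and bile acid lists was called by edgeR. In the first, 1 of 6 genes tested for synthesis, 3 of 16 for conversion, 2 of 13 for bile acids and 2 of 5 receptors had an unadjusted p under 0.05, beside 2462 of 21019 genes in all. DESeq2 called none of them there, beside 2.35% of all genes. In the second the counts were 1 of 7, 3 of 16, 4 of 12 and 1 of 6, beside 4609 of 22690 genes, and DESeq2 called 1, 2, 2 and 1 of them, beside 12.0% of all genes.

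Markers of adrenal cortex and of hepatocytes were checked beside Hsd3b6. Leydig cell and skin markers were not examined. Of 9 adrenal cortex markers, 5 passed the filter in kidney tumors against control kidneys and none was called by edgeR, with 1 at an unadjusted p under 0.05 and 1 called by DESeq2. Over all 23578 genes 8536 had an unadjusted p under 0.05, edgeR called 19.0% and DESeq2 30.0%. Their sum was 2.37 to 10.2 CPM in kidney tumors and 5.03 to 5.17 in controls. Of 6 hepatocyte markers, all tested, 2 were called: Apoa2 fell (-1.57, SE 0.41, adjusted p = 0.0286) and Ahsg rose (3.05, SE 0.80, adjusted p = 0.0295), and the sum was 3.31 to 27.4 CPM in kidney tumors and 53.6 to 106 in controls. The part of such cells in the Hsd3b6 level was not tested.

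The genes around the cluster were measured beside it. Of the 4 protein-coding genes on each side and the 12 others inside the cluster, 12 passed the filter in kidney tumors against control kidneys. Hao2, a hydroxyacid oxidase that lies nearest to Hsd3b1, was not called in that comparison, at -1.65 (SE 1.25, adjusted p = 0.367). Gm4450 was not called there either (-2.19, SE 1.27, adjusted p = 0.24). Against non-transformed kidneys 2 of 12 tested were called lower, the pseudogenes Gm9678 (-3.30, adjusted p = 0.0175) and Gm5853 (-1.73, adjusted p = 0.0249), beside 17.1% of all genes. In retro-orbital against kidney tumors 2 of 11 were called higher, Phgdh of serine synthesis (1.30, adjusted p = 0.0123) and the transcription factor Tbx15 (3.26, adjusted p = 0.0441), beside 17.7%. Phgdh was the 1 of 11 called in brain against kidney tumors (1.74, adjusted p = 0.0457), beside 8.74%. Tbx15 was the 1 of 11 called in dysmorphic against control fetal kidneys (2.45, adjusted p = 0.0412), beside 2.67%.

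The promoters of Hsd3b6, Hsd3b2 and Hsd3b3 are shown because Hsd3b6 parted from Hsd3b2 and Hsd3b3 although their coding sequences are nearly the same. Each run is the 250 bases before the RefSeq transcription start (GRCm38.p6, minus strand, 5′ to 3′), at chr3:98814444-98814693 for Hsd3b6, chr3:98724544-98724793 for Hsd3b2 and chr3:98763129-98763378 for Hsd3b3. Capitals mark matches to the searched motifs.
Hsd3b6: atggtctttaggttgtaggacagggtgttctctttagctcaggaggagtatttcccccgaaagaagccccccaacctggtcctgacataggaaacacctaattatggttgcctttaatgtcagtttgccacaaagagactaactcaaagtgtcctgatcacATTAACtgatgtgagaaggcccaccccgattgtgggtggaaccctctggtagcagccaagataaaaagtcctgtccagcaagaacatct
Hsd3b2: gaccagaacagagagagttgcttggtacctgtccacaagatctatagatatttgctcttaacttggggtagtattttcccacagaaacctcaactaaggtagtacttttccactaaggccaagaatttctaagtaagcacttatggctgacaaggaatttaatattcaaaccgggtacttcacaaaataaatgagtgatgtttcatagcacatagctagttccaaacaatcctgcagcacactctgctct
Hsd3b3: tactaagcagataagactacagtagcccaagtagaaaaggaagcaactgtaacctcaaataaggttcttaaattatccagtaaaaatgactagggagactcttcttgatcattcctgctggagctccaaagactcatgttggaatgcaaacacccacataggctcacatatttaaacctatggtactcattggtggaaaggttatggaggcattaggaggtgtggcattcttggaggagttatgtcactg

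The promoter windows were unlike each other, in contrast to the coding sequences. In global alignments that allow gaps, 54.0% of the 250 bases of Hsd3b6 were matched in Hsd3b2 and 51.2% in Hsd3b3, close to the 54.0% it shared with the unlinked Hsd3b7. All 7 members had an entry in the RefSeq table. Motifs were searched on both strands of the 250 bases before the start. The E-box CACGTG, which is bound by TFE3 and its relatives, was in none of the members' windows and in 6.02% of 32851 promoters. CATGTG was found only in Hsd3b5, 134 bases before its start, and in 12.25% of promoters. The nuclear receptor motif AAGGTCA matched none of them, and 4.08% of promoters. The HNF1 palindrome matched none either and was in 0.01% of promoters, while GTTAAT, its first part, was found in Hsd3b6, 89 bases before the start, and in Hsd3b4, and in 6.43% of all promoters. These are matches of letters, not measured sites.

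The genes whose pattern was most like that of each main member were found by Pearson's r of log2 CPM over the 20 mouse-by-group units of the Sglt2-Cre model, among 15598 genes. The units share mice, and tumor sites set much of the spread, so r is a description. Hsd3b6 was nearest to Ugt1a9, a glucuronosyltransferase (0.887), Tshr, the thyrotropin receptor (0.887), Mroh2a (0.883), the adaptor Blnk (0.871) and Slc25a1, the mitochondrial citrate carrier (0.868). Tshr averaged 238 CPM in kidney tumors, 18.6 in control kidneys and 4.54 in retro-orbital tumors. Within the family Hsd3b6 was nearest to Hsd3b1 (0.765), and its r with Hsd3b2 was 0.229 and with Hsd3b3 0.132.

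Hsd3b3, the member with the most counts in control kidneys, had Sgk2, Mep1a, Atp6v0a4 and Acaa1b (each 0.994) among the 5 genes nearest to it. Its r was 0.965 with Hsd3b4, 0.953 with Hsd3b2, 0.870 with Hsd3b5 and -0.733 with Hsd3b7. Mep1a, a brush border protease, averaged 709 CPM in control kidneys, 258 in kidney tumors and 4.71 in brain tumors.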

How the data were processed

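RNA of 36 libraries was sequenced from formalin-fixed, paraffin-embedded tissue with a stranded total RNA kit and no removal of ribosomal RNA. The authors deposited raw counts per gene in 2 tables, 28 libraries of the Sglt2-Cre model and 8 of the Pax8-Cre model. Per the labels, STAR 2.5.2a, Bowtie2, FastQC and MultiQC were used, with GRCm38. The treatment of multi-mapped reads is not given in the sources used here. Libraries held 80205573 to 121415057 counts, and 79.04% to 84.33% of counts from 1 to 20 were even. Libraries of a mouse and group were summed, and the tables were normalized separately with TMM.

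Fits were made in R 4.3.3 by edgeR 4.0.16, on the 2 groups compared alone (quasi-likelihood F-test, filterByExpr, Benjamini-Hochberg over all genes tested), and genes with an adjusted p under 0.05 were called. Errors of log2 fold changes were derived from the F statistic. The p-values measure the spread between mice. DESeq2 1.42.0, other scaling, no filter, halved counts, sex, the mouse as a block, a joint fit, single libraries and leaving out each mouse were tried. The fits were tested on simulated data. Sequences came from GRCm38 with GENCODE M21, which held 53274 of 53379 genes, and from RefSeq promoters. The mouse pairs samples of the same animal, with correlations of deviations from -0.187 to 0.396. Members and gene lists were chosen with earlier results of these data known. Named were all 7 members, the list and locus genes called, and the 5 genes most like Hsd3b6 and Hsd3b3. Some genes that this rule names are not reported here.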

Additional observations from a re-analysis of the deposited data

Results flagged for a closer look

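Of 28 group levels examined, 5 had 1 animal far from the rest of its group. A rate of 1 in 20 would give about 1.4. The members move together and share animals, so the levels are not independent and no excess is read from this. In the retro-orbital tumors all such values came from mouse 5, with 14.11 CPM of Hsd3b2 (next highest 0.942), 8.886 CPM of Hsd3b3 (next 0.5545) and 0.01774 CPM of Hsd3b5, which was 2 counts against 0 in the other 3. The proximal tubule marker sum of that tumor was 1185 CPM, the highest of its group. Among the dysmorphic fetal kidneys, fetus 5 held 26.42 CPM of Hsd3b3 (next 1.51) and had the highest proximal tubule marker sum, 856.2 CPM, and fetus 3 held 0.2078 CPM of Hsd3b5 (next 0.04364). The part of tubule in these levels was not tested.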

How the results depend on the processing

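Of 885 values compared with an alternative, 56 changed, and the cause was not tested. Of these, 27 were changed counts of members called, 12 were fold changes that became called and 9 were fold changes that reversed. The rest moved beyond the spread. In comparisons with the kidney tumors a reversal was counted only for members called in the main fit. DESeq2 called 4 members in kidney tumors against non-transformed kidneys, 3 in non-transformed against control kidneys (Hsd3b6 1.21, adjusted p = 0.00357), 5 in retro-orbital and 5 in brain against kidney tumors, and 2 in the fetal kidneys (Hsd3b6 -3.55, adjusted p = 0.000609). A joint fit also called 5 and 5 in the latter tumor comparisons. Every library as its own sample called 3 in non-transformed kidneys (Hsd3b6 1.21, adjusted p = 0.0449). The title prefix as a covariate called 1 in the fetal kidneys (Hsd3b6 -3.41, adjusted p = 0.0497). With the mouse as a replicate block, 1 member was called in kidney tumors against non-transformed kidneys (Hsd3b6 3.64), 2 in retro-orbital and 0 in brain against kidney tumors, and no block could be fitted for brain against retro-orbital tumors, which share only mouse 2. Leaving out 1 animal or library gave 0 to 4 members called in kidney tumors against control kidneys, 0 to 2 against non-transformed kidneys, 0 to 2 in non-transformed kidneys, 0 to 4 in retro-orbital and 0 to 3 in brain against kidney tumors, and 0 to 1 in the fetal kidneys (Hsd3b6 -4.29 to -2.38). Among values not called, signs changed in non-transformed kidneys Hsd3b3 (-0.21 to 0.1) and Hsd3b4 (-0.81 to 0.1), and in brain against retro-orbital tumors Hsd3b2 (-3.08 to 0.69), Hsd3b3 (-2.07 to 1.39, and 0.59 with sex as a covariate), Hsd3b6 (-1.42 to 0.09) and Hsd3b7 (-0.79 to 0.35). Signs also changed for Hsd3b1 in kidney tumors against non-transformed kidneys (-0.37 to 0.47) and Hsd3b7 in brain against kidney tumors (-0.11 to 1.35). The 2 libraries highest in Hsd3b6 were left out after seeing the data. Over all genes, DESeq2 called 7079 in kidney tumors against control kidneys (edgeR 4474), 6004 against non-transformed kidneys (3755), 5996 in retro-orbital (3919) and 5115 in brain against kidney tumors (2044), 3087 in brain against retro-orbital tumors (364) and 2722 in the fetal kidneys (605). In non-transformed against control kidneys it called 2.35% of genes, where edgeR called 2 genes. Single libraries gave 9405, 227 and 4052 in kidney tumors against controls, non-transformed kidneys against controls and brain against kidney tumors, and the block gave 847 and 0 against non-transformed kidneys and in brain tumors. The joint fit gave 5933 in brain against kidney tumors, 3096 in brain against retro-orbital tumors and 5 in non-transformed kidneys. No filter gave 6 in the latter, and sex as a covariate gave 5 there, 175 in brain against retro-orbital tumors and 5 in the fetal kidneys. The low counts of Hsd3b4, Hsd3b5 and Hsd3b7 limit what their values show.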
